A study of Homo sapiens with 21 samples.

Results

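The established human triple-negative breast cancer (TNBC) lines MDA-MB-468 and BT-549 were compared in their untreated state, using the arrays of cells that had received the solvent DMSO for 6 hours. The members are the 2 DMSO arrays of MDA-MB-468 and the single DMSO array of BT-549, which are 3 of the 21 arrays of the series. The series profiled 4 breast cancer lines after DMSO or THZ1 at 50 or 250 nM. THZ1 binds covalently to CDK7, which phosphorylates RNA polymerase II as part of TFIIH. All cells grew in RPMI-1640 with serum and antibiotics. ZR-75-1 and T47D, which express the oestrogen receptor (ER+), gave 2 DMSO arrays each and serve below only to show which TNBC line departs from the others. BT-549 has 1 array, so no test was run and every difference is a description of these 3 arrays. The labels do not say that the 2 MDA-MB-468 arrays came from separate cultures, so the spread between them may be technical.

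TNBC lacks the oestrogen and progesterone receptors and amplified ERBB2, and its cell lines fall broadly into basal and mesenchymal kinds. Basal lines keep epithelial junctions and express the keratins of the outer layer of the mammary duct. Mesenchymal lines have given up E-cadherin junctions for vimentin filaments, N-cadherin and a secreted collagen matrix, a state set up by transcription factors of the SNAI, TWIST and ZEB families during epithelial-mesenchymal transition (EMT).

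Values are linear Affymetrix intensities, and a difference is the mean log2 intensity of MDA-MB-468 minus the log2 intensity of BT-549. A gene counted as called when BT-549 lay outside both MDA-MB-468 arrays and the difference was at least 2-fold, which is 1 on the log2 scale. The yardstick for error is the SD of log2 values between replicate arrays, pooled over the 9 replicated groups of the series, with a median of 0.108 over genes. Mean array intensity was 332.8 and 342.8 in MDA-MB-468, against 342.1 in BT-549. The 2 MDA-MB-468 arrays were at least 2-fold apart for 23 of 11456 genes, and the other 8 replicate pairs of the series for 3 to 16.

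Transcripts of the oestrogen and progesterone receptors were low in both lines, while receptor protein and ERBB2 amplification were not measured. ESR1, the oestrogen receptor, read 29.1 and 32.6 in MDA-MB-468, against 18.4 in BT-549, and averaged 442 in ZR-75-1 and 906 in T47D. PGR, the progesterone receptor, read 13.2 and 9.45 in MDA-MB-468, against 15.9 in BT-549. ERBB2, the HER2 receptor kinase, read 163 and 145 in MDA-MB-468, with BT-549 between them at 148. It averaged 248 in ZR-75-1 and 306 in T47D. Housekeeping genes lay close together, with a median difference of 0.07 over 23 genes and 1 call, REEP5, an endoplasmic reticulum shaping protein.

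The lines differed widely. BT-549 lay outside both MDA-MB-468 arrays at some distance in 10487 of the 11456 genes that passed the filter on low values, which is 91.5%. In 5939 of these MDA-MB-468 was the higher line and in 4548 the lower. A further array of the same cells would also lie outside both in most genes, so this share alone does not measure a line difference. The median absolute difference was 0.522, well above the median replicate SD. At the 2-fold limit 1713 genes were called higher in MDA-MB-468 (15.0% of those tested) and 1338 lower (11.7%), or 26.6% in either direction. The difference reached 4-fold in 639 higher and 487 lower genes and 16-fold in 161 higher and 105 lower ones. Nearest to the limit on the called side lay SETDB2, with 80.2 and 89.2 in MDA-MB-468, against 42.3 in BT-549, and CNIH4, with 2074 and 2566, against 4614. Nearest to it on the uncalled side lay DDX39A, with 2382 and 2413 in MDA-MB-468, against 1200 in BT-549, and CEP85L, with 106.7 and 109.9, against 216.5. The median over all tested genes was 0.10 with the intensities as deposited and -0.05 after each array was centred on its median, which turned the share of calls that were higher in MDA-MB-468 to 47.9% against 56.1% as deposited. List medians near 0 have no direction that holds under both scalings.

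**Figure D1:**
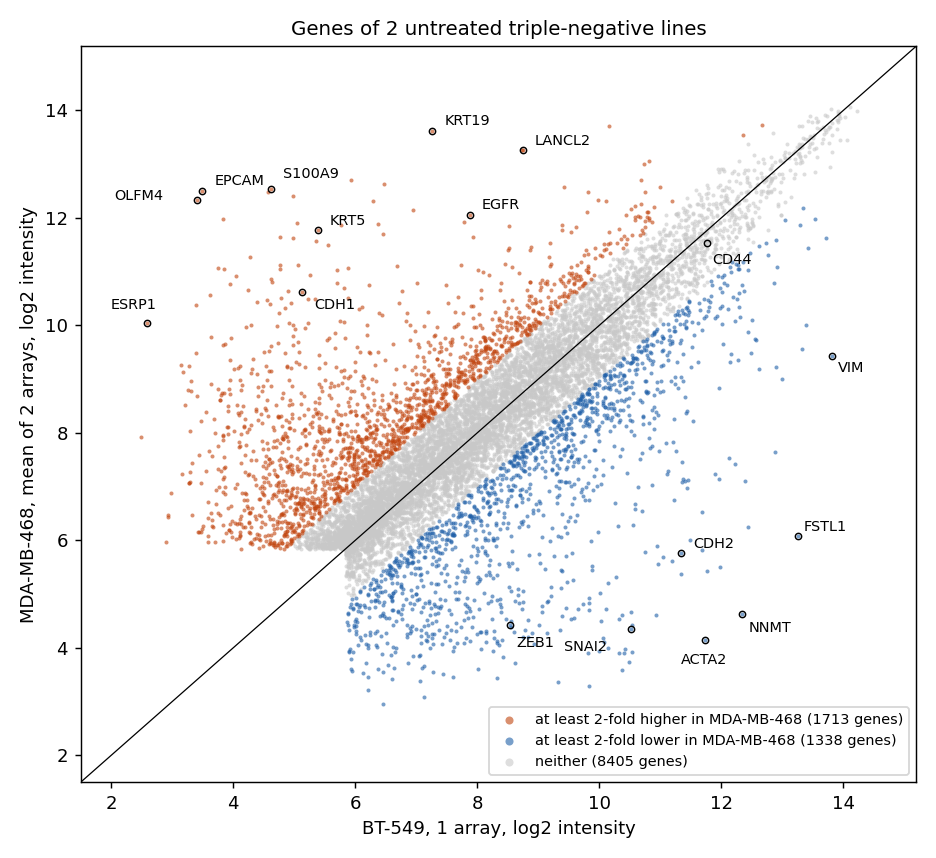
Each point is 1 of 11456 genes, with the log2 intensity of MDA-MB-468 (mean of 2 arrays) on the vertical axis and of BT-549 (1 array) on the horizontal axis. The 1713 genes called higher in MDA-MB-468 lie above the diagonal and the 1338 called lower lie below it, with EPCAM and NNMT near the far corners.

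The 12 highest differences in favour of MDA-MB-468 were led by S100A9, EPCAM and MMP7. EPCAM, the epithelial cell adhesion molecule, read 5752 and 5916 in MDA-MB-468, against 11.2 in BT-549. That BT-549 value lies below the level of the array's own background probe sets, so the gene was at least 232-fold higher in MDA-MB-468. S100A9, a calcium-binding protein of inflamed epithelia and myeloid cells, read 5837 and 6059 in MDA-MB-468, against 24.6 in BT-549, at least 236-fold. MMP7, the small matrix protease matrilysin, was at least 228-fold higher and OLFM4, a secreted glycoprotein of epithelial crypts, at least 205-fold. RARRES1 (a retinoid-responsive gene), KRT23 (a keratin), AKR1C2 (a steroid and carbonyl reductase), PI3 and SLPI (secreted inhibitors of neutrophil elastase), S100A7 (psoriasin), VTCN1 (the T-cell inhibitory ligand B7-H4) and VAMP8 (a vesicle fusion protein) completed the 12 highest, with folds between at least 85.2 for VAMP8 and 173 for RARRES1.

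The 12 lowest were led by NNMT, FSTL1 and ACTA2. NNMT, nicotinamide N-methyltransferase, read 25.9 and 23.99 in MDA-MB-468, against 5199 in BT-549, a log2 difference of -7.66 with the 1 MDA-MB-468 array that was below background set to it. FSTL1, a secreted follistatin-like glycoprotein, read 76.3 and 60.2 in MDA-MB-468, against 9761 in BT-549. ACTA2, smooth muscle actin, read 17.1 and 18.2 in MDA-MB-468, both below background, against 3419 in BT-549, and was at least 134-fold lower. The other members of the 12 lowest were CD70 (a TNF family ligand), BASP1 (a membrane-bound signalling protein of neurons), CTSL (the lysosomal protease cathepsin L), ALPK2 (an alpha-kinase), OXTR (the oxytocin receptor), COL5A2 and COL1A2 (fibrillar collagen chains), GPC6 (a glypican) and SNAI2 (Slug). Their log2 differences, with genes below background in MDA-MB-468 at their bound, ran from -6.48 for CD70 to -5.86 for SNAI2. CD70 read 44.2 and 46.2 in MDA-MB-468, against 4049 in BT-549.

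Junction and adhesion genes of epithelia were nearly all higher in MDA-MB-468. Of 43 listed genes 40 were measured and 37 passed the filter, and of these 31 were called higher and 2 lower, with a median difference of 2.48 against 0.10 over all tested genes. CDH1, E-cadherin, read 1453 and 1691 in MDA-MB-468, against 34.9 in BT-549, a difference of 5.49 with a pooled replicate SD of 0.08. CLDN7, a tight junction claudin, read 1933 and 2013 in MDA-MB-468, against 38.2 in BT-549. DSP, the desmosomal plaque protein desmoplakin, read 3788 and 3782 in MDA-MB-468, against 83.1 in BT-549. For these 3 genes ZR-75-1 and T47D also read far above BT-549, which stood alone at the bottom. SPINT2, an inhibitor of epithelial serine proteases, was 65.1-fold higher in MDA-MB-468 and MAL2, a protein of apical transport, 44-fold. P-cadherin did not follow: CDH3 read 502 and 493 in MDA-MB-468, against 915 in BT-549. Its difference of -0.88 was not called with the intensities as deposited, but lay near the limit, where a call depends on the scaling. The 2 junction genes called lower were CLDN1, another claudin, with 576 and 627 in MDA-MB-468, against 2919 in BT-549, and CDCP1, a surface glycoprotein, with 250.3 and 210.4, against 850.0.

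Of the junction genes called higher in MDA-MB-468, 4 held at least 3 copies of the E-box CACCTG within 300 bases around their RefSeq start site, counting the reverse strand form CAGGTG as well. That letter pattern is the one that SNAI and ZEB proteins are known to recognise. The promoters run from 250 bases before to 50 bases after the start, on GRCh38.p14, written 5′ to 3′ on the strand of the gene, and the capitals mark the E-boxes. AP1M2 encodes the adaptor subunit of basolateral sorting, CLDN7 a claudin, and CRB3 and PATJ 2 partners of the Crumbs polarity complex. Their places are chr19:10587263-10587562 (minus strand) for AP1M2, chr17:7262429-7262728 (minus strand) for CLDN7, chr19:6464021-6464320 (plus strand) for CRB3 and chr1:61742230-61742529 (plus strand) for PATJ.
AP1M2: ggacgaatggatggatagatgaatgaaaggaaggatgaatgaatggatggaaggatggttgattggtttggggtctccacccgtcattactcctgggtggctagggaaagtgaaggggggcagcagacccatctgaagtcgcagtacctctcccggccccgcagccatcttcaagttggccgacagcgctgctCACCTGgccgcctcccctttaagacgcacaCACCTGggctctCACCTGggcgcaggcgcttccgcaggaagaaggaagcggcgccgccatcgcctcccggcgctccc
CLDN7: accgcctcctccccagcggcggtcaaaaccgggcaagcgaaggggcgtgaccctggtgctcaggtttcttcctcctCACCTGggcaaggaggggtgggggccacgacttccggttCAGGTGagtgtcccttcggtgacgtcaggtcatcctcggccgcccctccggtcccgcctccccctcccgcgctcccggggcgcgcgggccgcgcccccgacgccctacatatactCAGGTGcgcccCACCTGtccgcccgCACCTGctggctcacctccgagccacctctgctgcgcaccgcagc
CRB3: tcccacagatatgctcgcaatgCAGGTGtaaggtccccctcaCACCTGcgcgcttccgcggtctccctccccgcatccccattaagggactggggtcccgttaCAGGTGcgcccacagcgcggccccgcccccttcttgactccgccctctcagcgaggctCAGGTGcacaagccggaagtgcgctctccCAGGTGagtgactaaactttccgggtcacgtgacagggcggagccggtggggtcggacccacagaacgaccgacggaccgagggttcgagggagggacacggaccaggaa
PATJ: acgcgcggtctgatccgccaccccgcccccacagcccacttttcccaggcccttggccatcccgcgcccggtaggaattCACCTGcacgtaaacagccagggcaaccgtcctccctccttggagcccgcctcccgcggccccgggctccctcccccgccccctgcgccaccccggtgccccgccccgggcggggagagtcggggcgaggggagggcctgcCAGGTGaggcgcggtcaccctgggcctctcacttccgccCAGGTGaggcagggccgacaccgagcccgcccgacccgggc

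An E-box of this form occurred in 20.6% of all 35116 promoters of the table and 3 or more in 0.635%. It occurred in 15 of the 26 promoters (57.7%) of junction genes called higher in MDA-MB-468, and 4 of the 26 (15.4%) held 3 or more. These promoters belong to 20 of the 31 such genes, and CDH1 is not among them. Over the whole junction list it occurred in 17 of 35 promoters (48.6%), and in 1 of the 2 promoters of junction genes called lower. Over all called genes it occurred in 25.5% of promoters of genes higher in MDA-MB-468, in 14.9% of promoters of genes lower there and in 18.1% of promoters of tested genes that were not called. The mean GC content of these 3 sets was 63.5%, 63.6% and 63.9%. It was not matched between junction genes called higher, at 66.9%, and all promoters of the table, at 57.5%. Promoters of all tested genes had 63.8% GC, and 18.9% of them held the E-box. Mesenchymal marker genes held the E-box in 5 of 43 promoters (11.6%) and collagen genes in 1 of 20 (5%). These are matches of letters in a fixed window, and binding was not measured.

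Keratins, the intermediate filaments of epithelia, separated the lines whether they belonged to the basal or to the luminal kind. Of 11 keratins that passed the filter 10 were called higher in MDA-MB-468 and none lower, with a median difference of 4.53. KRT5, the basal keratin, read 3494 and 3516 in MDA-MB-468, against 41.7 in BT-549. Its partner KRT14 read 849 and 1149 in MDA-MB-468, against 36.2 in BT-549. ZR-75-1 and T47D stayed at the BT-549 level for both, so among the untreated arrays MDA-MB-468 was the line that stood apart. KRT8, KRT18 and KRT19, keratins of simple and luminal epithelia, were 71.2, 23.1 and 82 times as high in MDA-MB-468 as in BT-549. For KRT18 this was 10050 and 9572 in MDA-MB-468, against 424 in BT-549, and for these 3 keratins BT-549 stood apart from all other lines.

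**Figure D2:**
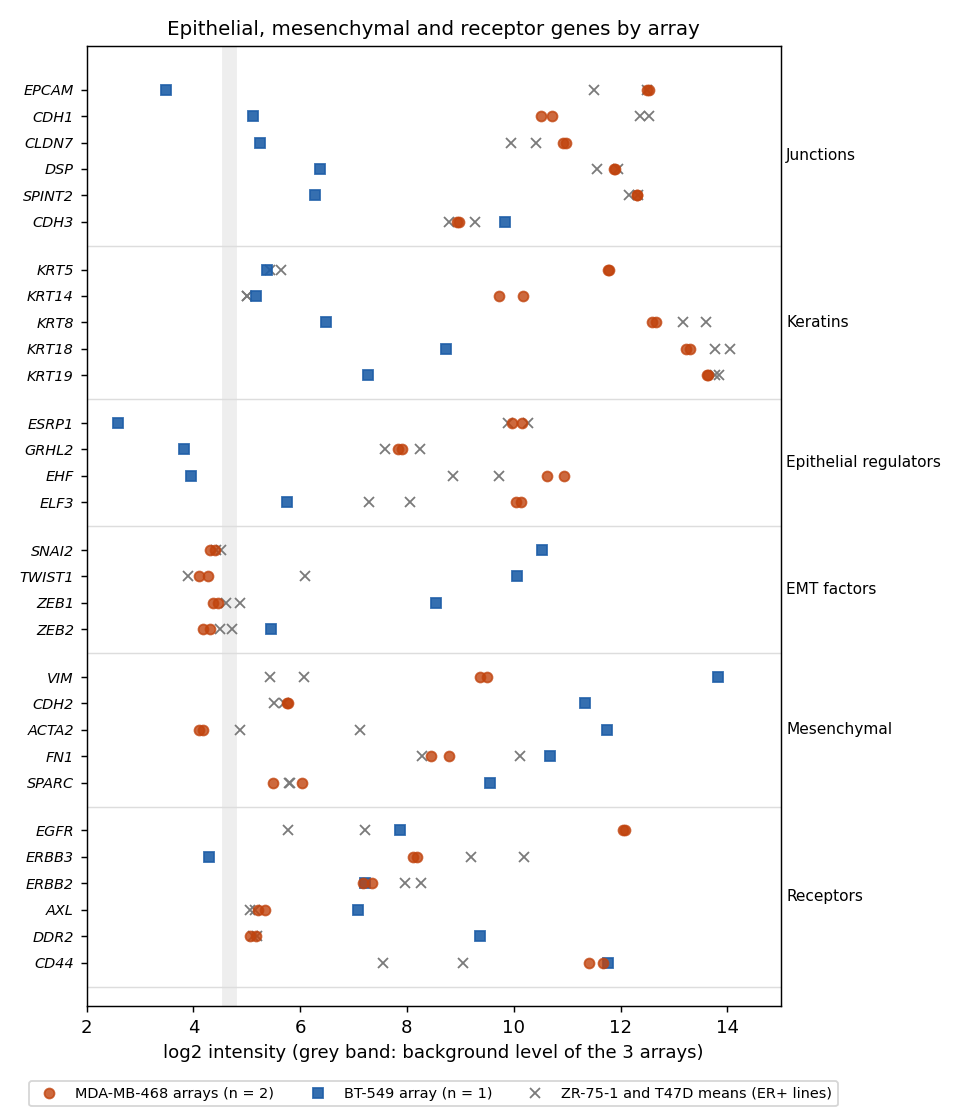
Log2 intensity of 30 genes in the 2 MDA-MB-468 arrays (circles), the BT-549 array (squares) and the means of ZR-75-1 and T47D (crosses), with the background level of the 3 TNBC arrays as a grey band. EPCAM, ESRP1 and the junction and keratin genes lie right in MDA-MB-468, except CDH3, which lies right in BT-549. SNAI2, TWIST1, ZEB1 and the mesenchymal genes lie right in BT-549, and ERBB2 and CD44 overlap or nearly so.

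Regulators that hold the epithelial state followed the junction genes. ESRP1, a splicing factor that sets the epithelial isoforms of many transcripts, read 996 and 1132 in MDA-MB-468, against 6.03 in BT-549, below background there and at least 42.2-fold higher in MDA-MB-468. GRHL2, a grainyhead transcription factor that activates junction genes, read 227 and 240 in MDA-MB-468, against 14.2 in BT-549, at least 9.28-fold. EHF and ELF3, epithelial ETS factors, were at least 69.7-fold and 20-fold higher in MDA-MB-468. Across the list 17 of 24 genes that passed the filter were called higher in MDA-MB-468 and 1 lower, with a median difference of 2.39. The exception was EN1, a homeobox factor.

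EMT transcription factors ran the other way. Of 22 listed factors 14 passed the filter, of which 10 were called lower in MDA-MB-468 and 1 higher, with a median difference of -2.61. SNAI2 read 19.8 and 21.05 in MDA-MB-468, against 1477 in BT-549, at least 58-fold lower. TWIST1 read 19.4 and 17.2 in MDA-MB-468, against 1063 in BT-549, at least 41.7-fold lower. ZEB1, a repressor of E-cadherin, read 20.8 and 22.2 in MDA-MB-468, against 371 in BT-549, and all 7 of its probe sets were lower in MDA-MB-468. ZEB2 was lower in MDA-MB-468 at both of its probe sets, but the brighter one by mean level reached only 43.9 in BT-549 and did not pass the filter. TBX3 (at least 12.5-fold) and TWIST2 (10.2-fold) were also lower in MDA-MB-468. KLF8, a zinc finger factor, was the 1 factor called higher, with 80.2 and 93.8 in MDA-MB-468, against 7.67 in BT-549.

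Mesenchymal marker genes gave 24 lower and 1 higher call among 34 that passed the filter, with a median difference of -2.31. VIM, vimentin, read 659 and 722 in MDA-MB-468, against 14442 in BT-549, and was thus well above background in both lines, with ZR-75-1 and T47D at 67.0 and 43.1. CDH2, N-cadherin, read 54.4 and 54.3 in MDA-MB-468, against 2580 in BT-549. TAGLN, an actin-binding protein of smooth muscle, THY1, a fibroblast surface protein, and EMP3, a membrane protein, were 23.9-fold, 29.7-fold and at least 25.6-fold lower in MDA-MB-468. The gene called higher was PDGFC, a platelet-derived growth factor. Markers of endothelial cells and fibroblasts, which a culture of a single line should lack, gave 0 higher and 5 lower calls among 9 that passed, namely ACTA2, COL1A1, COL1A2, COL3A1 and RGS5. The defining endothelial genes PECAM1, VWF and CDH5 and the pan-leukocyte gene PTPRC were not called and read at most 67.6 in any of the 3 arrays. Of 5 immune cell markers that passed the filter 1 was called higher, CD14, a co-receptor of monocytes for lipopolysaccharide, with 284 and 298 in MDA-MB-468, against 22.1 in BT-549, at least 11.6-fold. In bulk RNA, fewer cells of a type and less RNA per cell cannot be told apart.

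Collagen transcripts were mostly higher in BT-549, while secreted matrix was not measured. None of the 18 collagens that passed the filter was called higher in MDA-MB-468 and 13 were called lower, with a median of -1.77. The fibrillar chain COL3A1 read 14.1 and 15.8 in MDA-MB-468, against 1360.5 in BT-549, and COL1A2 read 25.5 and 18.2, against 1482. The basement membrane chain COL4A1 read 24.2 and 24.8 in MDA-MB-468, against 1324 in BT-549. Other matrix genes were mixed, with 6 higher and 12 lower calls among 27. VCAN (versican), SPOCK1 (testican) and SPARC (osteonectin) were at least 13.3-fold, 58.1-fold and 13.9-fold lower in MDA-MB-468. MGP, matrix Gla protein, went against them, with 13958 and 12965 in MDA-MB-468, against 1140 in BT-549, as did FBLN1, fibulin-1, with 574 and 568, against 64.1.

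Among 22 proteases of the matrix and their inhibitors 6 were called higher and 10 lower in MDA-MB-468. The higher ones included MMP7 and the kallikreins KLK5 (36.8-fold) and KLK10 (10.4-fold), serine proteases of stratified epithelia. SERPINE2, an inhibitor of thrombin and urokinase, read 204 and 194 in MDA-MB-468, against 7563 in BT-549. TIMP1, an inhibitor of metalloproteases, was 7.58-fold lower in MDA-MB-468 at the probe set used, though of its 3 probe sets 2 were called lower and 1 higher. TIMP3, another inhibitor of metalloproteases, was 7.49-fold higher in MDA-MB-468, with 287 and 285, against 38.2 in BT-549.

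Genes typical of basal-like breast tumours were mostly high in MDA-MB-468. Of 26 that passed the filter 20 were called higher and 1 lower, with a median of 3.44. PROM1, the stem and apical membrane protein CD133, read 1896 and 2397 in MDA-MB-468, against 14.5 in BT-549, at least 84.7-fold. Luminal genes gave 10 higher and 3 lower calls among 16. FOXA1, a pioneer factor of luminal cells, read 262 and 293 in MDA-MB-468, against 15.07 in BT-549, with means of 3632 in ZR-75-1 and 4655 in T47D. GATA3, a luminal master regulator, read 331 and 325 in MDA-MB-468, against 139 in BT-549. SOX9, a progenitor factor, was 2.77-fold higher in MDA-MB-468.

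**Figure D3:**
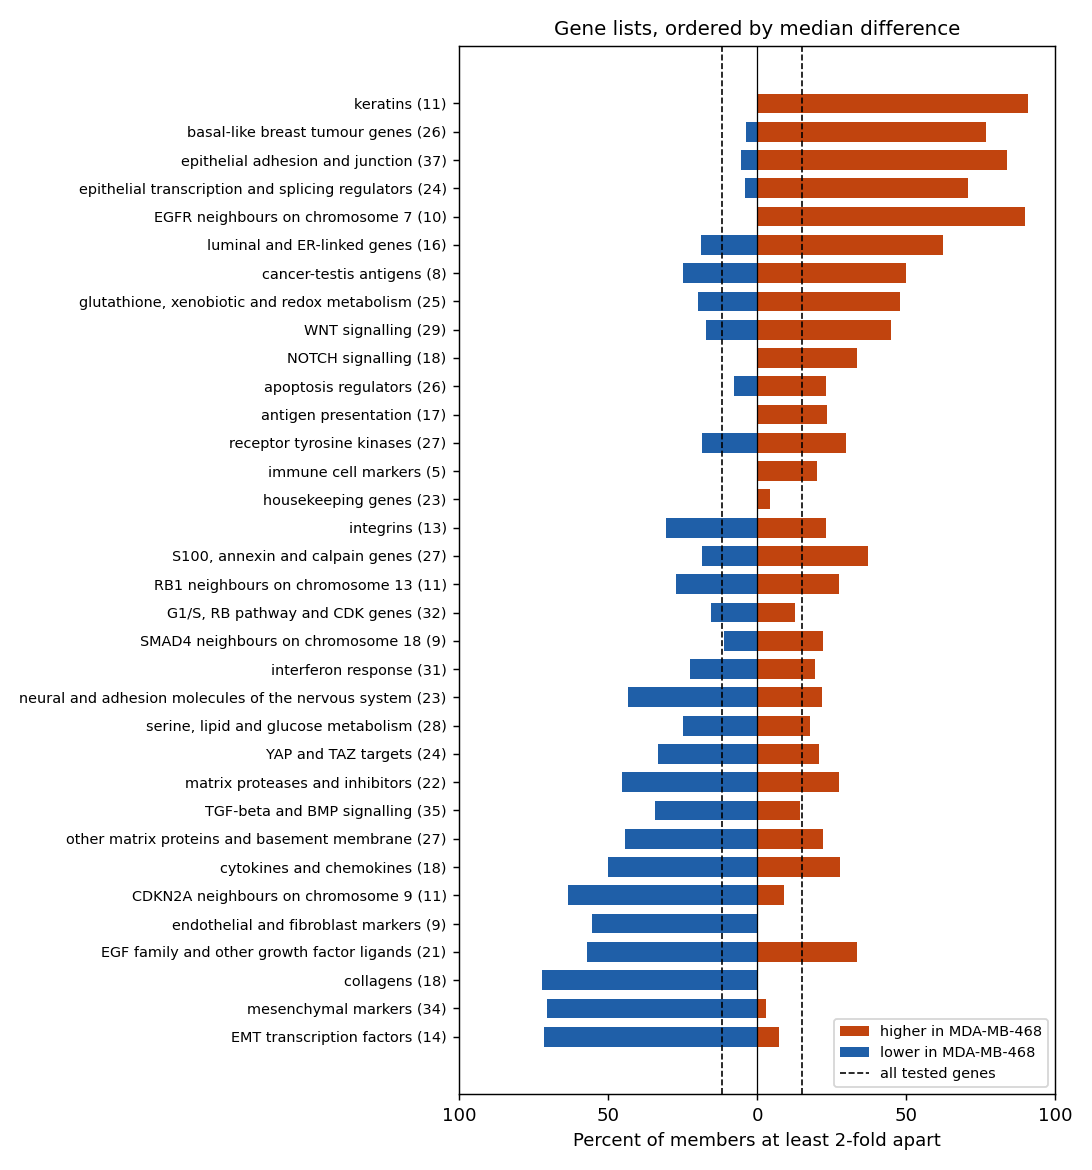
For each gene list shown, the percent of members that passed the low-value filter (their number in brackets) and were at least 2-fold higher in MDA-MB-468 (right) or lower (left), ordered by median difference. Dashed lines give the shares over all tested genes, 15.0% higher and 11.7% lower. Keratins, EGFR neighbours and junction genes reach furthest right, and EMT factors, mesenchymal markers and collagens furthest left.

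The surface markers used to define breast cancer stem-like cells differed in an uneven way. CD24, a glycoprotein of epithelial cells, read 8327 and 8190 in MDA-MB-468, against 1695 in BT-549, a difference of 2.28. CD44, the hyaluronan receptor, read 2732 and 3242 in MDA-MB-468, against 3469 in BT-549, a difference of -0.22, and none of its 10 probe sets was called. Both TNBC lines were above ZR-75-1 and T47D for CD44, whose means were 530 and 187.

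Receptor tyrosine kinases gave 8 higher and 5 lower calls among 27, with a median of 0.22. EGFR read 4216 and 4319 in MDA-MB-468, against 235 in BT-549, a difference of 4.19, and 7 of its 8 probe sets were at least 2-fold higher. ERBB3, the kinase-poor partner of ERBB2, was at least 11.2-fold higher in MDA-MB-468, and DDR1, a collagen receptor of epithelial cells, read 3590 and 3810, against 367 in BT-549. Its relative DDR2, a receptor for fibrillar collagen, went the other way, with 33.5 and 36.1 in MDA-MB-468, against 660 in BT-549. EPHA2, an ephrin receptor, read 121 and 117 in MDA-MB-468, against 829 in BT-549. AXL, a kinase tied to the mesenchymal state, read 40.3 and 36.8 in MDA-MB-468, against 136 in BT-549.

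Growth factor ligands and binding proteins were divided between the lines, with 7 higher and 12 lower calls among 21. TGFA, a ligand of EGFR, read 295 and 316 in MDA-MB-468, against 18.4 in BT-549, at least 12.1-fold higher. IGFBP5 and IGFBP2, binding proteins of insulin-like growth factors, were at least 64-fold and 11.8-fold higher in MDA-MB-468. BDNF (a neurotrophin), FGF2 (basic fibroblast growth factor) and VEGFC (a lymphatic growth factor) were 32.1-fold, 22.1-fold and at least 14.7-fold lower. FGF2 read 126 on both MDA-MB-468 arrays, against 2770 in BT-549.

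TGF-beta and BMP genes gave 5 higher and 12 lower calls among 35, with a median of -0.51. ID1 and ID3, early targets of BMP receptors, read 177 and 165, and 527 and 777, in MDA-MB-468, against 4772 and 4525 in BT-549. BMP4, a ligand, was 7.48-fold lower in MDA-MB-468, and INHBB, an activin subunit, at least 40-fold higher. WNT genes gave 13 higher and 5 lower calls among 29, with the ligands WNT6 (8.84-fold), WNT10A (at least 7.54-fold) and WNT7B (7.13-fold) higher in MDA-MB-468 and WNT5B (11.8-fold) and the WNT inhibitor SFRP2 (at least 8.86-fold) lower. NOTCH genes gave 6 higher and 0 lower calls among 18, in either direction a share not far above the 26.6% over all tested genes. Among them were the receptors NOTCH3 (7.88-fold) and NOTCH1 (2.35-fold) and the target HES1 (5.01-fold). Of their probe sets, 1 of 2 for NOTCH3, 1 of 3 for NOTCH1 and 2 of 5 for HES1 were called higher. At 250 nM THZ1 NOTCH3 kept its call, while NOTCH1 (0.59) and HES1 (0.50) were not called. Targets of the Hippo effectors YAP and TAZ gave 5 higher and 8 lower calls among 24, with F3, tissue factor, at 2084 and 2385 in MDA-MB-468, against 27.2 in BT-549, and AXL and DOCK5 lower.

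Integrins gave 3 higher and 4 lower calls among 13. ITGB4, the hemidesmosome subunit, and ITGB8 were 2.98-fold and 4.09-fold higher in MDA-MB-468. ITGB1, the common beta subunit, read 4006 and 4053 in MDA-MB-468, against 11842 in BT-549, and ITGA4 was at least 4.75-fold lower.

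Chemokines that draw neutrophils were low in MDA-MB-468. CXCL8 (interleukin-8) read 140 and 134 in MDA-MB-468, against 5392 in BT-549, CXCL1 read 72.0 and 49.7, against 1979, and CXCL5 read 11.6 and 12.3, against 1326. With CXCL2 and CXCL3 they formed a run of 5 neighbouring genes on chromosome 4, counting genes with at least 2 times the filter level on some untreated array, in which BT-549 was at least 2-fold above every untreated array of the other 3 lines. The whole cytokine list gave 5 higher and 9 lower calls among 18, with CCL28, a mucosal chemokine, and IL18 higher in MDA-MB-468. Antigen presentation genes gave 4 higher and 0 lower calls among 17: HLA-F, HLA-B, HLA-C and PSMB8, an immunoproteasome subunit. Taken in either direction, this share is near the 26.6% over all tested genes, and the list median was 0.28. HLA-B read 2730 and 2699 in MDA-MB-468, against 362 in BT-549. HLA genes are close in sequence, and for HLA-C 2 probe sets were called higher and 1 lower, so the values of single HLA genes are uncertain. Interferon response genes were mixed, with 6 higher and 7 lower calls among 31.

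Genes of the G1/S control of the cell cycle gave 4 higher and 5 lower calls among 32, a share near that of all genes. CDKN2A, which encodes the CDK inhibitor p16, read 3689 and 3784 in MDA-MB-468, against 10043 in BT-549, and ZR-75-1 averaged 28.4. CDKN1A, the inhibitor p21, read 132 and 146 in MDA-MB-468, against 661 in BT-549. CCND1, cyclin D1, was 3.26-fold higher in MDA-MB-468. MYC read 1846 and 1914 in MDA-MB-468, against 3156 in BT-549, and CDK7, the target of THZ1, 628 and 643, against 1228. Neither reached the 2-fold limit with the intensities as deposited, at -0.75 and -0.95. Centring lowers every difference, since the array medians on the log2 scale were 6.00 and 5.97 in MDA-MB-468, against 5.84 in BT-549. CDK7 lay so near the limit that its call depends on the scaling.

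For RB1, the retinoblastoma repressor, probe sets disagreed. Of its 3 probe sets 2 read between 9.77 and 19.1 in the 3 TNBC arrays, all below background, while the ER+ lines read 59.5 to 209. The other one read 10.0 and 12.3 in MDA-MB-468, against 423 in BT-549, and was low in the ER+ lines, at 15.6 to 33.2. Its chromosomal neighbour LPAR6, a lysophosphatidic acid receptor gene that lies within RB1, read 11.3 and 13.5 in MDA-MB-468, against 137 in BT-549. The other RB1 neighbours gave no common direction, with 3 higher and 3 lower calls among 11 in all and a median of -0.01.

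SMAD4, the common mediator of TGF-beta and BMP signals, showed a like pattern. Of its 7 probe sets 6 were at least 2-fold lower in MDA-MB-468 and in 5 no MDA-MB-468 array was above background, with BT-549 between 64.5 and 722. The brightest probe set by mean level, which stands for the gene here, read 309 and 272 in MDA-MB-468, against 470 in BT-549, and was not called. At the 6 lower probe sets ZR-75-1 lay near MDA-MB-468, and T47D lay nearer to BT-549. ELAC1, the gene next to SMAD4, which encodes a tRNA-processing nuclease, read 14.8 and 17.8 in MDA-MB-468, against 82.4 in BT-549, while its other probe set read 23.6 and 25.6, against 37.1, and was not 2-fold apart. On the far side MEX3C was level, with 638 and 635 in MDA-MB-468, against 667 in BT-549. Over the list of SMAD4 and its neighbours, 2 of 9 genes that passed the filter were called higher and 1 lower, with a median of -0.20. Farther out on the MEX3C side, genes outside this list were called lower by -1.71 to -2.83. Farther out on the ELAC1 side, another was called higher by 2.02.

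EGFR was the first of a block of neighbours on chromosome 7 that were higher in MDA-MB-468. Of 10 genes of this stretch that passed the filter 9 were called higher and none lower, with a median of 1.81. LANCL2, a lanthionine synthetase-like gene next to EGFR, read 9780 and 9804 in MDA-MB-468, against 429 in BT-549. VOPP1, the next one, read 6621 and 6738, against 1653. Beyond them PSPH, a phosphatase of serine synthesis, CCT6A, a chaperonin subunit, and SUMF2 were 4.61-fold, 3.31-fold and 3.72-fold higher, and CHCHD2 2.1-fold. PHKG1 was the 1 gene of the 10 that was not called, at 110 and 93.0 in MDA-MB-468, against 71.8 in BT-549. On the other side of EGFR, VSTM2A was at background in both lines, and GRB10, a receptor-binding adaptor picked out after its values were seen, read 168 and 148 in MDA-MB-468, against 596.5 in BT-549. DNA copy number was not measured.

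**Figure D4:**
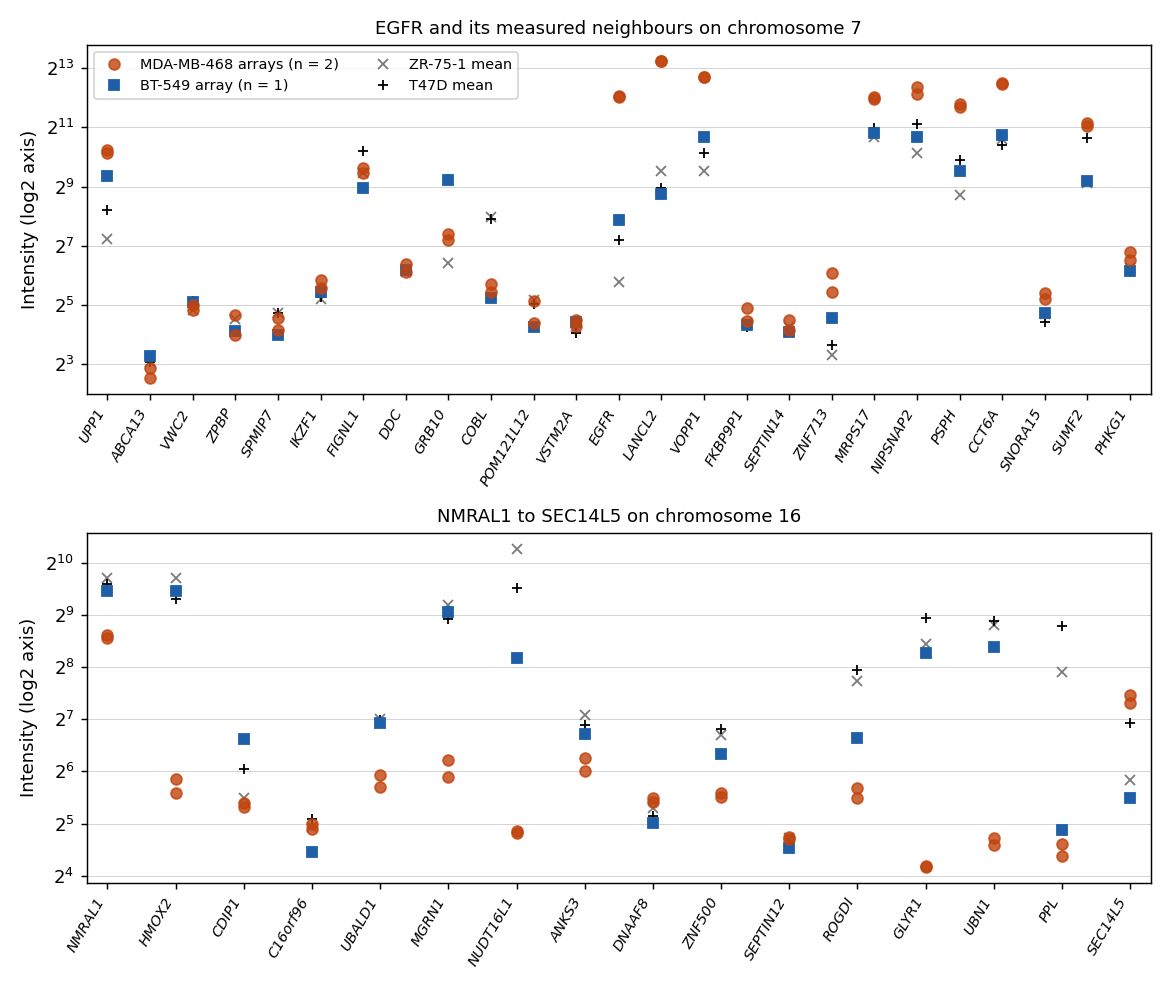
Intensity of each measured gene in chromosomal order (equal spacing, log2 axis) around EGFR on chromosome 7 and from NMRAL1 to SEC14L5 on chromosome 16, in the 2 MDA-MB-468 arrays, the BT-549 array and the ER+ means. EGFR, LANCL2 and VOPP1 stand above all other lines in MDA-MB-468, and HMOX2, MGRN1, NUDT16L1, GLYR1 and UBN1 stand below all of them.

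A stretch of chromosome 16, chosen after its values were seen, showed the reverse in MDA-MB-468. Between NMRAL1 and SEC14L5 16 genes were measured, of which 13 reached the filter level in BT-549 or an ER+ line. In 5 of them, HMOX2 (haem oxygenase 2), MGRN1 (a ubiquitin ligase), NUDT16L1, GLYR1 (a chromatin-bound cofactor) and UBN1 (a subunit of a histone H3.3 chaperone), both MDA-MB-468 arrays were at least 2-fold below every untreated array of the other 3 lines. HMOX2 read 57.7 and 47.9 in MDA-MB-468, against 706 in BT-549, and GLYR1 read 18.04 and 18.1, against 310. UBN1 read 26.6 and 24.1 in MDA-MB-468, against 335 in BT-549. The genes at the edges, NMRAL1 at 392 and 375 in MDA-MB-468, against 705 in BT-549, and SEC14L5 at 159 and 177, against 45.05, were above the filter level in MDA-MB-468. MGRN1, inside the stretch, was above it too, at 74.4 and 59.5, so that level does not mark where the low genes end. Over all 6 MDA-MB-468 arrays, THZ1 doses included, UBN1 lay between 21.3 and 31.4, against 253 to 335 over the 3 BT-549 arrays. Dimmer probe sets did not all agree, since 1 of 2 for NUDT16L1, 1 of 2 for UBN1 and 3 of 4 for GLYR1 were at least 2-fold lower in MDA-MB-468.

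Neighbours of CDKN2A on chromosome 9 were mostly lower in MDA-MB-468, with 7 lower and 1 higher call among 11 and a median of -1.31. ELAVL2, an RNA-binding protein of neurons, read 130 and 123 in MDA-MB-468, against 1599 in BT-549, and KLHL9, a ubiquitin ligase adaptor, 307 and 315, against 1105. MTAP, the gene beside CDKN2A, read 244 and 258 in MDA-MB-468, against 326.5 in BT-549, and was not called.

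Differences were not spread evenly over the chromosomes, a description added after the data were seen. On chromosome 8 the median difference was -0.92, and 194 of 410 tested genes (47.3%) were called lower in MDA-MB-468 and 9.02% higher. Chromosome 2 was the reverse, with a median of 0.62 and 235 of 762 genes (30.8%) called higher and 6.17% lower. The other chromosomes with medians beyond 0.3 were 21 (0.44), 11 (0.38) and 9 (-0.31). When the tested genes were taken in order in groups of about 25, all 16 groups of chromosome 8 had a median below 0 and all 30 of chromosome 2 above 0. All 27 groups of chromosome 11, all 13 of chromosome 15 and all 5 of chromosome 21 were above 0 as well. The lowest group of chromosome 2 was at 0.13. Group medians were not recomputed after centring, which lowers every difference. Against the mean of the ER+ lines, chromosome 8 genes had a median of -0.23 in MDA-MB-468 and 0.54 in BT-549, and chromosome 2 genes 0.27 in MDA-MB-468 and -0.32 in BT-549. The group with the lowest median was the first of chromosome 8, FBXO25 to VPS37A (-1.45), and the one with the highest lay on chromosome 19, RAVER1 to PLPPR2 (1.25).

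**Figure D5:**
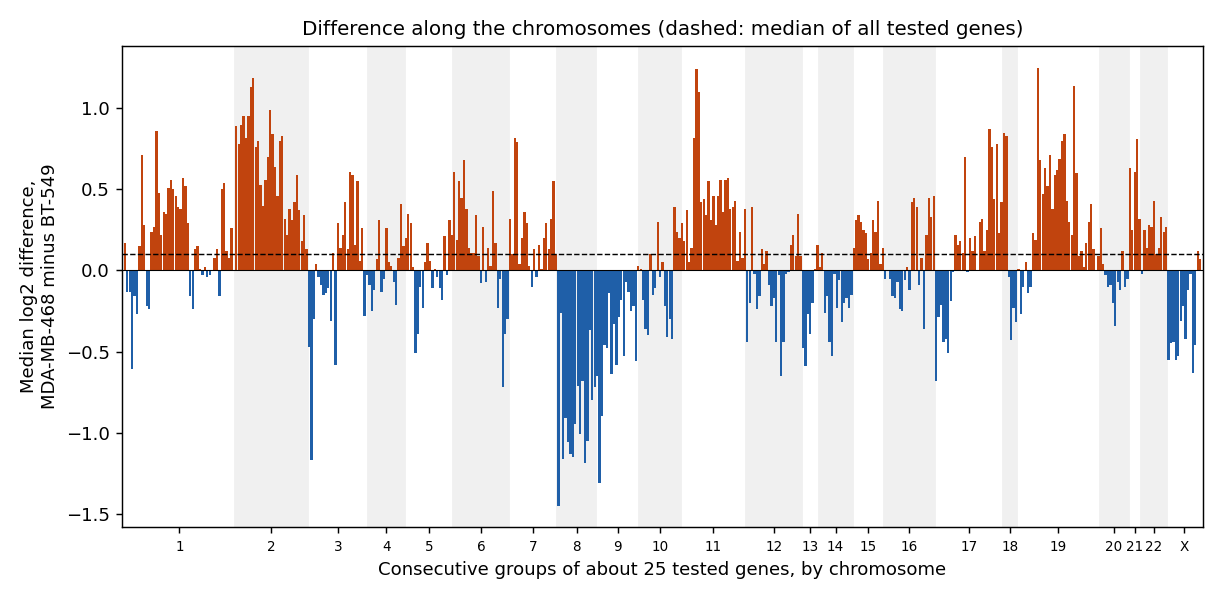
Median log2 difference, MDA-MB-468 minus BT-549, in 445 consecutive groups of about 25 tested genes along each chromosome, with the median of all tested genes dashed. The bars of chromosome 8 all point down and those of chromosomes 2, 11, 15 and 21 all point up.

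The ER+ lines showed which TNBC line departed from the rest. Of the 1713 genes higher in MDA-MB-468, BT-549 was at least 2-fold below every other untreated array in 562, MDA-MB-468 at least 2-fold above every other in 354, both held in 23 and neither in 774. Of the 1338 genes lower in MDA-MB-468, BT-549 was apart on the high side in 610, MDA-MB-468 on the low side in 139, both in 22 and neither in 567. MDA-MB-468 had to clear the other lines with both of its arrays and BT-549 with 1, so these counts do not compare the lines on equal terms. ZEB1, SNAI2, VIM and COL1A2 belong to the 610, and EPCAM, CDH1 and ESRP1 to the 562. OLFM4, MMP7, KRT5, KRT14 and EGFR belong to the 354. CDKN1A and TIMP1 are among the 139, with means of 833 and 664 for CDKN1A in ZR-75-1 and T47D.

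The same lines were also compared on their THZ1 arrays, which are other samples of these lines. At 50 nM 16.1% of the 11456 genes were higher in MDA-MB-468 and 10.7% lower, and at 250 nM 13.2% and 12.3%. Of the 1713 genes higher in MDA-MB-468 with DMSO, 1531 (89.4%) were called the same way at 50 nM and 1334 (77.9%) at 250 nM. Of the 1338 lower ones 1129 (84.4%) and 1131 (84.5%) were called the same way. None was called the opposite way at either dose. Among the genes at least 16-fold apart, 160 of 161 higher and 105 of 105 lower kept their call at each dose. The exception was CYP1A1, a dioxin-inducible cytochrome P450, which read 579 and 597 in MDA-MB-468, against 31.0 in BT-549, with DMSO. At 50 nM it read 32.0 and 35.8 in MDA-MB-468, against 30.6 in BT-549.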

How the data were processed

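RNA of 21 samples was measured on 3′ expression arrays, of which 3 carry the comparison. Per the labels, an ERCC mix was added by cell number, but the same mass of RNA (100 ng) was amplified for each, so levels are not per cell. The deposited values are linear intensity per probe set, made with MAS5 per the submitters' processing notes, and their scaling between arrays is not stated. The number of arrays limits the precision. Groups came from titles and the cell line field (the source name of ZR-75-1 and T47D names MDA-MB-468). Python 3.11.15, numpy 2.4.6, pandas 2.3.3 and matplotlib 3.10.9 were used.

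Of 49395 probe sets, 44994 have 1 gene symbol, 1832 several and 2569 no entry, and 44967 were updated through Entrez to RefSeq names. Each gene took its probe set of highest mean log2 value over the 21 arrays. Values were raised to 1 and taken to log2. Of 18106 genes, 11456 passed the filter (the MDA-MB-468 mean or BT-549 at least log2 5.84, an intensity of 57.4). Where the low line was not above the mean of the 23 background probe sets of its array, a fold was computed against the higher of gene and background and is given as "at least". The call rule was tested on simulated data, with noise of the pooled replicate SD for both lines. Since BT-549 has 1 array, the simulation cannot show how far calls resting on that array would hold.

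The members and lists were chosen with earlier results of these data known. The text names the 12 highest differences per direction, fixed marker and driver genes, up to 6 called members per list and genes next to EGFR, SMAD4, RB1 and CDKN2A. CLDN1, CDCP1, EN1, PDGFC, CXCL3, GRB10, AP1M2, CRB3, PATJ, the genes at the 2-fold limit, the chromosome 16 genes and the ends of gene groups were named after their values were seen. KRT17 and FOXC1 were not analysed here, and some other listed genes are not reported here. Promoters are from RefSeq (GRCh38.p14). Alternatives varied the floor, the scaling, the filter, the probe set, the limit and the MDA-MB-468 array.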

Additional observations from a re-analysis of the deposited data

How the results depend on the processing

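No paired analysis was possible because BT-549 has 1 array without a replicate number. A limit of 4-fold left 639 higher and 487 lower genes. Leaving out 1 MDA-MB-468 array gave 1677 to 1793 higher and 1274 to 1407 lower genes. The other alternatives gave 1401 to 1841 higher and 1070 to 1580 lower, within 1.5 times the 1713 and 1338 reported. Of these, centring each array on its median gave 1450 and 1580, quantile normalization 1600 and 1402, and the median of each gene's probe sets 1401 and 1128, with 1 gene called the opposite way. Of 190 genes named here 167 were called, and none of these changed sign under the 7 alternatives run on single genes. Of the uncalled ones ERBB2, VWF, MEX3C, PTPRC, VSTM2A and RB1 changed sign under at least 1 of them. Changing the floor, adding 16 to each intensity or leaving out an array could not reverse a called gene, since BT-549 lay outside both arrays. Differences moved by more than 1 replicate SD in 129 of the 190 genes with 16 added and in 117 with the probe set median. Centring moved 97 by more than that, quantile normalization 71, the floor 13 and leaving out either array 24. Chromosome medians, added after the data were seen, were 0.48 (chromosome 2), -1.07 (8), -0.46 (9), 0.24 (11) and 0.30 (21) after centring, and the cause of any shift was not tested. Genes below background have a bound only, and with 1 BT-549 array no spread within that line is known.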

Other observations

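Metabolic genes set the lines apart in ways the junction and matrix genes do not show. Of 25 genes of glutathione, xenobiotic and redox metabolism that passed the filter, 12 were called higher in MDA-MB-468 and 5 lower, with a median of 0.93. AKR1C1, a ketosteroid reductase close in sequence to AKR1C2, read 948 and 1100 in MDA-MB-468, against 26.4 in BT-549, and MGST2, a membrane glutathione transferase, 806 and 842, against 33.4. Because AKR1C1 and AKR1C2 are close in sequence, their single values are uncertain. Genes of serine, lipid and glucose metabolism gave 5 higher and 7 lower calls among 28. FABP5, a fatty acid carrier, read 16.4 and 15.10 in MDA-MB-468, against 1372 in BT-549, at least 53.9-fold lower. LDHB, a lactate dehydrogenase subunit, read 597 and 603 in MDA-MB-468, against 7640.5 in BT-549, and both lines were above ZR-75-1 and T47D, at 14.3 and 32.7. SQLE, an enzyme of cholesterol synthesis that lies on chromosome 8, was 7.87-fold lower in MDA-MB-468, and SLC2A1, the glucose transporter GLUT1, 5.06-fold higher.

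S100 and annexin genes gave 10 higher and 5 lower calls among 27, with S100A14 and S100A16 at differences of 6.28 and 6.21 and ANXA3 at least 71-fold higher. Genes of the nervous system gave 5 higher and 10 lower calls among 23. UCHL1, a ubiquitin hydrolase of neurons, read 148 and 154 in MDA-MB-468, against 3799 in BT-549, and TUBB3, neuronal beta-tubulin, 729 and 686, against 4582. The guidance ligands SLIT2 and SLIT3 were 16.8-fold and at least 4.54-fold lower in MDA-MB-468, and SEMA3E, another guidance ligand, at least 17-fold higher. Cancer-testis antigens, genes normally read in germ cells, gave 4 higher and 2 lower calls among 8. CSAG1 read 1394 and 1480 in MDA-MB-468, against 40.7 in BT-549, and MAGED1, a broadly expressed MAGE relative, 143 and 139, against 2660. Apoptosis regulators gave 6 higher and 2 lower calls among 26, in either direction a share near that of all genes. The lower ones were the death receptors FAS, at least 12.2-fold lower in MDA-MB-468, and TNFRSF10B, by -1.68 on the log2 scale, and TNFRSF10A, another death receptor, was among the higher ones, by 1.35.

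Apart from the chemokines, 8 more runs of at least 4 neighbouring expressed genes had 1 TNBC line at least 2-fold beyond every untreated array of the other 3 lines. On chromosome 19, KRI1, CDKN2D, AP1M2 and SLC44A2 formed a run above all others in MDA-MB-468, with SLC44A2, a choline transporter-like protein, at 3222 and 3191 in MDA-MB-468, against 243.9 in BT-549. On chromosome 9 a run of 6 genes, PSIP1 to PLIN2, was higher in BT-549, with BNC2, a zinc finger protein, at 17.3 and 19.5 in MDA-MB-468, against 458.1 in BT-549. These runs were picked out after their values were seen.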
